A study of Mus musculus with 6 samples.

Results

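The Slc22 genes encode membrane carriers that move organic anions, organic cations, urate and carnitine across the walls of kidney tubule cells. In the proximal tubule, the carriers of the blood-facing membrane take up drugs, toxins and metabolic waste for secretion into the urine, and those of the urine-facing membrane recover urate, nicotinate and carnitine from the filtrate. OAT1 (Slc22a6), the classical carrier of para-aminohippurate, trades each anion for a dicarboxylate from inside the cell, and its expression marks the maturation of the proximal tubule. The 9 genes described here were chosen by symbol as organic anion, cation, urate and carnitine carriers of the family, and all 9 were among the 24422 gene symbols counted.

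RNA was measured in whole kidneys of C57BL/6 mice at postnatal day 13, on a diet with 220 ppm iron. There were 3 Control libraries, whose genotype label is wild type, and 3 TfR1 knockout libraries, labelled Tfr1f/f;SixCre, in which a Cre recombinase driven by Six2 in the progenitors of the nephron deletes floxed exons of the transferrin receptor gene (Tfrc). The collecting duct does not come from those progenitors, and the study describes tubule cells that escaped deletion. Controls were littermates, and the study's legend to its expression analysis describes the replicates as mice. Whether the Control mice carried a floxed allele or Cre is not given in the labels. For other experiments the study names TfR1f/f littermates, which it also calls wild type, as its controls.

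Total gene counts ran from 16591156 to 22898008 per library, so counting error was small for all but the lowest members. The 20 proximal tubule markers summed to 182177 to 325744 normalized counts in Control and 267051 to 473473 in TfR1 knockout libraries, so the groups overlapped in this sum. Some libraries stood apart. Control replicate 3 had the highest summed stromal markers (99436 normalized counts, against 27161 to 48689 in the other libraries), and Control replicate 1 had 19356 normalized counts of adrenal cortex markers (149 to 2629 elsewhere). Xist, which is expressed from the inactive X chromosome, was high in Control replicates 1 and 3 and in TfR1 knockout replicate 2 (16704, 22092 and 27153 normalized counts) and at 78.2 to 1031 in the others, so the groups did not hold the same mix of sexes. Tfrc itself was 5229 ± 1434 in Control and 5640 ± 1482 in TfR1 knockout libraries (mean ± SD, n = 3 each), but this count covers the whole gene and not the floxed exons alone, so it does not check the deletion.

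In TfR1 knockout kidneys Slc22a6 rose while Slc22a13, Slc22a30 and Slc22a4 fell, and the other 5 genes did not pass the test. The change was largest for Slc22a13, a urine-facing urate and nicotinate carrier, at 12.2-fold lower, and Slc22a6 was 3.46-fold higher. A gene was called at a DESeq2 adjusted p under 0.05 (Wald test, Benjamini-Hochberg adjustment over 16509 genes tested). Of the 9 members, all tested, 1 was higher and 3 were lower, where 7.74% of all genes tested were higher and 7.18% lower. By edgeR's quasi-likelihood test 1 was higher and 2 were lower, where 3.22% and 2.8% of 15308 genes tested were called. The groups did not overlap for 3 members, 1 higher and 2 lower, and among all genes tested 16.9% lay wholly above and 16.9% wholly below the Control range. The median log2 fold change (knockout minus Control) of the members was -1.64, against 0.0071 for all genes tested, and 8 of 9 were negative. The members were chosen with earlier results of these data known, and the other Slc22 genes tested had a median of -0.49. In these whole-organ samples fewer cells that express a gene and less RNA per cell cannot be told apart.

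**Figure D1:**
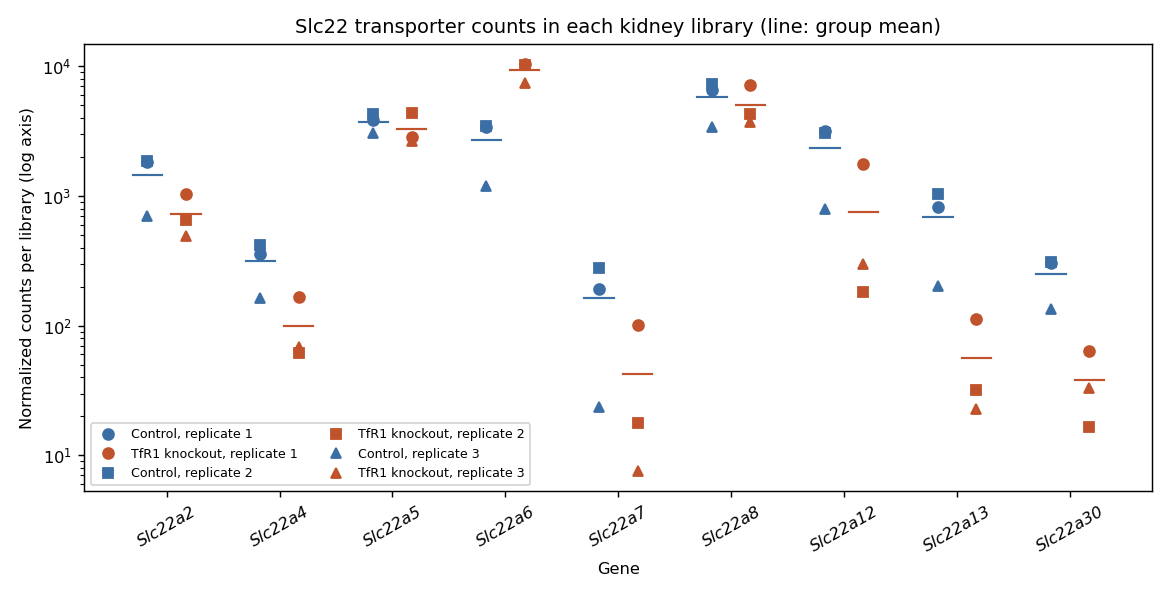
Normalized counts (vertical log axis) of the 9 Slc22 genes (horizontal axis) in each of the 3 Control (blue) and 3 TfR1 knockout (orange) libraries, with a marker shape per replicate and a line at each group mean. Slc22a6 lies higher in every TfR1 knockout library than in any Control library, Slc22a13 and Slc22a30 lie lower in every TfR1 knockout library, and the other 6 genes overlap.

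The organic anion carriers of the blood-facing membrane are Slc22a6 (OAT1) and Slc22a8 (OAT3), which share many drug substrates. They lie side by side on chromosome 19 of the mm9 build, on the same strand, Slc22a8 at 8665744 to 8686324 and Slc22a6 at 8692486 to 8702789, with a gap of 6161 bases that holds no other annotated gene.

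Slc22a6 had 3396, 3486 and 1198 normalized counts in the Control libraries and 10343, 10197 and 7422 in the TfR1 knockout libraries (here and below in replicate order). Every TfR1 knockout library was above every Control library, and Control replicate 3 was the lowest of all. The means were 2693 ± 1296 and 9321 ± 1646 (SD, n = 3 each), a log2 fold change of 1.79 (SE 0.39, DESeq2 adjusted p 0.000105, edgeR adjusted p 0.0441). Without Control replicate 3 the log2 fold change was 1.43, still past the threshold.

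Slc22a8 had 6610, 7306 and 3376 normalized counts in the Control libraries and 7163, 4319 and 3724 in the TfR1 knockout libraries. The groups overlapped through nearly their whole range. The log2 fold change was -0.19 (SE 0.36, DESeq2 adjusted p 0.787), and it became 0.015 without Control replicate 2. No 100-base window of either gene's protein-coding transcripts occurred in those of another gene. Shorter or inexact matches and other parts of the genome were not searched.

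The ratio of Slc22a6 to Slc22a8, each per kilobase of exon, was 0.444, 0.412 and 0.307 in the Control libraries and 1.25, 2.04 and 1.72 in the TfR1 knockout libraries. OAT3 transcripts therefore outnumbered those of OAT1 in each Control library, and the order was the other way round in each TfR1 knockout library. The means were 0.388 ± 0.072 and 1.67 ± 0.40 (SD, n = 3 each), and the log2 ratio was higher by 2.10 in knockout (two-sided exact permutation test, p = 0.1, the smallest that 3 against 3 allows). This ratio was chosen after the values were seen.

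**Figure D2:**
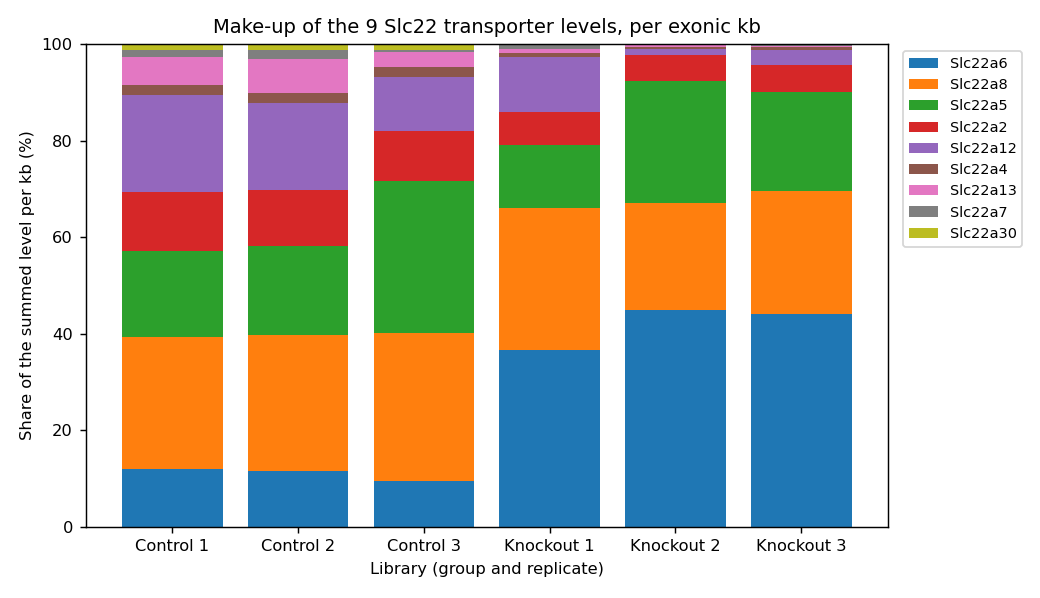
Share (percent) of the summed level per kilobase of exon of the 9 Slc22 genes taken by each gene, stacked for each of the 6 libraries. Slc22a6 holds 9.42 to 12.1% in the Control libraries and 36.6 to 45.0% in the TfR1 knockout libraries.

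Slc22a7 (OAT2), an anion carrier known for the transport of cyclic GMP, lies on chromosome 17 at 46569134 to 46575426. It had 191, 277 and 23.7 normalized counts in Control and 101, 17.9 and 7.57 in TfR1 knockout libraries. TfR1 knockout replicate 1 lay above Control replicate 3. The log2 fold change of -1.95 had an SE of 1.28 and did not pass (DESeq2 adjusted p 0.327). It was -3.71 (adjusted p 0.000389) without TfR1 knockout replicate 1 and -2.47 (adjusted p 0.0373) without Control replicate 3. With any other library left out it did not pass (DESeq2 adjusted p 0.371 to 0.616).

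The rodent gene Slc22a30 belongs to the anion carrier branch of the family and lies on chromosome 19 at 8409861 to 8479601, within a row of family genes. It had 302, 312 and 136 normalized counts in the Control libraries and 63.6, 16.6 and 33.1 in the TfR1 knockout libraries. The groups did not overlap. The mean went from 249.7 ± 98.9 to 37.8 ± 23.9 (SD, n = 3 each), 6.57-fold lower (log2 fold change -2.72, SE 0.51, DESeq2 adjusted p 4.89e-06, edgeR adjusted p 0.0318). Without TfR1 knockout replicate 1 it was -3.31. Of its 100-base transcript windows, 20.5% also occur in Slc22a28 or Slc22a29, so unique counting may leave part of its reads out.

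Urate is recovered from the filtrate by Slc22a12 (URAT1) and Slc22a13 (OAT10), which both sit in the urine-facing membrane. Slc22a13, on chromosome 9 at 119102120 to 119118223, had 815, 1038 and 201 normalized counts in the Control libraries and 113, 32.0 and 22.7 in the TfR1 knockout libraries. Control replicate 3 was the lowest of its group and still above each TfR1 knockout library. The means were 685 ± 433 and 56.0 ± 49.9 (SD, n = 3 each), a log2 fold change of -3.61 (SE 0.66, DESeq2 adjusted p 2.59e-06, edgeR adjusted p 0.0419, limma-voom adjusted p 0.0695). Without TfR1 knockout replicate 1 it was -4.65. Slc22a13b-ps, a near copy with which 27.6% of its transcript windows are shared in the annotation (as Slc22a13b), was named after its values were seen and had 8.61 to 21.8 normalized counts in Control and 10.9 to 32.0 in TfR1 knockout libraries.

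Slc22a12, on chromosome 19 at 6535845 to 6543019, had 3180, 3039 and 792 normalized counts in Control and 1776, 180 and 299 in TfR1 knockout libraries. TfR1 knockout replicate 1 stood above Control replicate 3 and far above the other TfR1 knockout libraries. The log2 fold change was -1.64 (SE 1.08, DESeq2 adjusted p 0.33). It was -3.28 (adjusted p 5.9e-08) without TfR1 knockout replicate 1, the highest knockout library for this gene. With any other library left out it did not pass (DESeq2 adjusted p 0.26 to 0.626). Its exons overlap those of Nrxn2 on the other strand in 25.8% of windows. Nrxn2, a neuronal adhesion gene, had only 166 to 300 normalized counts in any library. Whether counting used strand is not given in the sources used here.

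The carriers of cations and carnitine are Slc22a2, Slc22a4 and Slc22a5. Slc22a4 (OCTN1), which takes up ergothioneine, lies on chromosome 11 at 53796625 to 53841592. It had 358, 421 and 164 normalized counts in the Control libraries and 167, 61.4 and 69.1 in the TfR1 knockout libraries. Control replicate 3 fell just under TfR1 knockout replicate 1, so the groups overlapped at that point. The mean was 3.16-fold lower (log2 fold change -1.66, SE 0.49, DESeq2 adjusted p 0.00749). Without TfR1 knockout replicate 1 it was -2.27. The call was lost by edgeR (adjusted p 0.0911) and by limma-voom (0.0872), and the DESeq2 adjusted p was 0.0727 without Control replicate 1, 0.105 without Control replicate 2 and 0.0727 without TfR1 knockout replicate 3.

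Slc22a2 (OCT2), the blood-facing carrier of organic cations such as metformin, lies on chromosome 17 at 12777055 to 12821331. It had 1836, 1851 and 698 normalized counts in Control and 1034, 650 and 494 in TfR1 knockout libraries. Control replicate 3 was below TfR1 knockout replicate 1. The log2 fold change of -1.01 (SE 0.42) did not pass (DESeq2 adjusted p 0.0824). It was -1.35 both without Control replicate 3 (adjusted p 0.000834) and without TfR1 knockout replicate 1 (adjusted p 0.0123). With any other library left out it did not pass (DESeq2 adjusted p 0.221 to 0.343).

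Slc22a5 (OCTN2), which recovers carnitine from the filtrate for fatty acid oxidation, lies near Slc22a4 on chromosome 11 at 53678044 to 53705162. It had 3844, 4250 and 3056 normalized counts in Control and 2824, 4355 and 2647 in TfR1 knockout libraries. TfR1 knockout replicate 2 was the highest of all 6 libraries. The log2 fold change was -0.18 (SE 0.26, DESeq2 adjusted p 0.697). Of its 100-base transcript windows, 12.9% also occur in Slc22a21, a near copy that lies between it and Slc22a4, so part of its reads may not have been counted as unique.

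The members ranked their libraries alike. Control replicate 3 was the lowest Control library for 9 of 9 members and Control replicate 2 the highest for 8. TfR1 knockout replicate 1 was the highest knockout library for 8 of 9. When Control replicate 3 was left out 5 members were lower, where 6.78% of all genes tested in that fit were, and when TfR1 knockout replicate 1 was left out 6 were, against 10.5% of all genes. With both left out, an alternative chosen after the data were seen, 7 were lower, against 10.8% of all genes. These libraries are the lowest Control and, for 8 members, the highest knockout library in the members' own values, so leaving them out itself moves the groups apart. Control replicate 3 was also the library with the most stromal RNA, and its proximal tubule markers had a mean of 12.40 on the log2 scale, against 13.39 and 13.44 in the other Control libraries and 12.93, 12.88 and 12.40 in the TfR1 knockout libraries. The part of either in these levels was not tested. With Xist as a covariate 5 members were lower, where 7.81% of all genes were, Slc22a2 (DESeq2 adjusted p 0.0403) and Slc22a7 (0.0274) being the further ones.

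**Figure D3:**
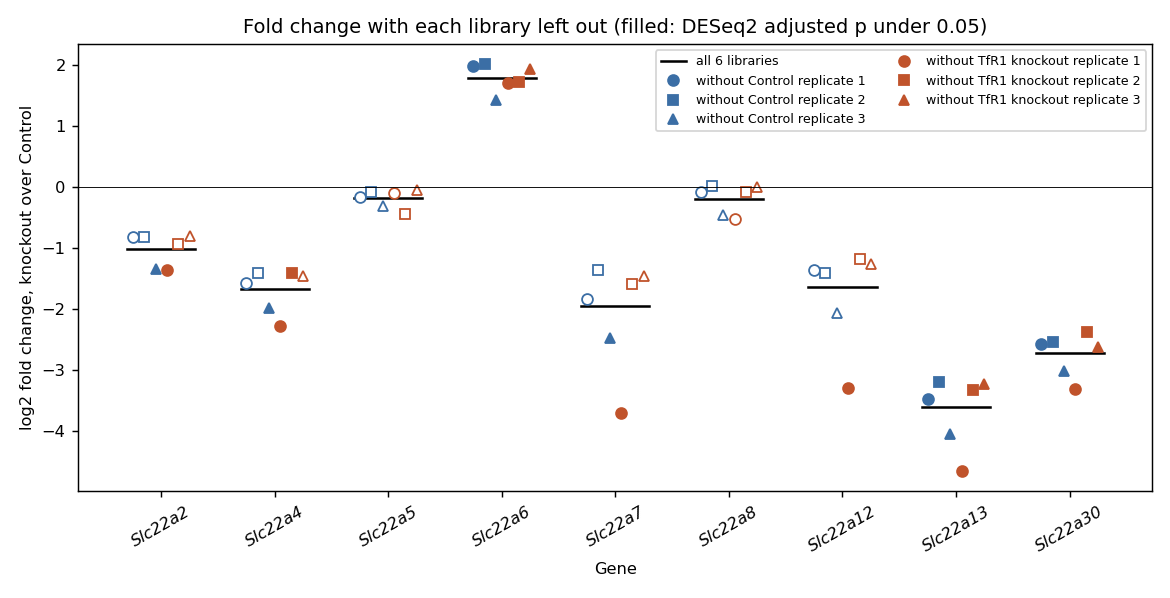
Log2 fold change (knockout minus Control) of each of the 9 genes with all 6 libraries (black line) and with 1 library left out in turn (points, filled where the DESeq2 adjusted p is under 0.05). Slc22a6 stays above 0 and Slc22a13, Slc22a30 and Slc22a4 below 0 in each fit, whereas Slc22a7 and Slc22a12 move most when TfR1 knockout replicate 1 is left out.

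Per kilobase of exon, the order of mean levels in Control libraries was Slc22a8 (1657 ± 603 normalized counts per kilobase), Slc22a5 (1210 ± 198), Slc22a12 (1039 ± 596), Slc22a2 (680 ± 308), Slc22a6 (669 ± 322), Slc22a13 (346 ± 219), Slc22a4 (123 ± 52.5), Slc22a7 (80.9 ± 63.6) and Slc22a30 (74.1 ± 29.4). Each gene's range over the Control libraries overlapped that of the next gene in this order. In TfR1 knockout libraries Slc22a6 moved from rank 5 to rank 1 (2315 ± 409), ahead of Slc22a8 (1457 ± 528) and Slc22a5 (1067 ± 306). Slc22a12 went from rank 3 to rank 5 (334 ± 395), beside Slc22a2 (338 ± 129). Slc22a13 went from rank 6 to rank 7 (28.3 ± 25.2), and Slc22a7 and Slc22a30 kept ranks 8 and 9. Neighbours in the knockout order overlapped in range except Slc22a5 with Slc22a2 and Slc22a12 with Slc22a4.

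Among 16 other Slc22 genes listed, 13 were tested, 0 were higher and 5 lower, where 7.74% and 7.18% of all genes tested were. Their median log2 fold change was -0.49. By edgeR 0 were higher and 2 lower, where 3.22% and 2.8% of all genes were. Slc22a27, a further rodent gene of the anion branch, had 378, 423 and 222 normalized counts in Control and 21.9, 7.68 and 10.4 in TfR1 knockout libraries (log2 fold change -4.66, DESeq2 adjusted p 5.43e-23, edgeR adjusted p 0.00389). Slc22a29 fell from 1898 ± 513 to 442 ± 191 normalized counts (mean ± SD, n = 3; log2 fold change -2.10, DESeq2 adjusted p 1.07e-07). Slc22a18 and Slc22a17, which are not of this branch, were lower by DESeq2 with smaller sizes (-1.32 and -0.78). Neither was called by edgeR, nor was Slc22a28.

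**Figure D4:**
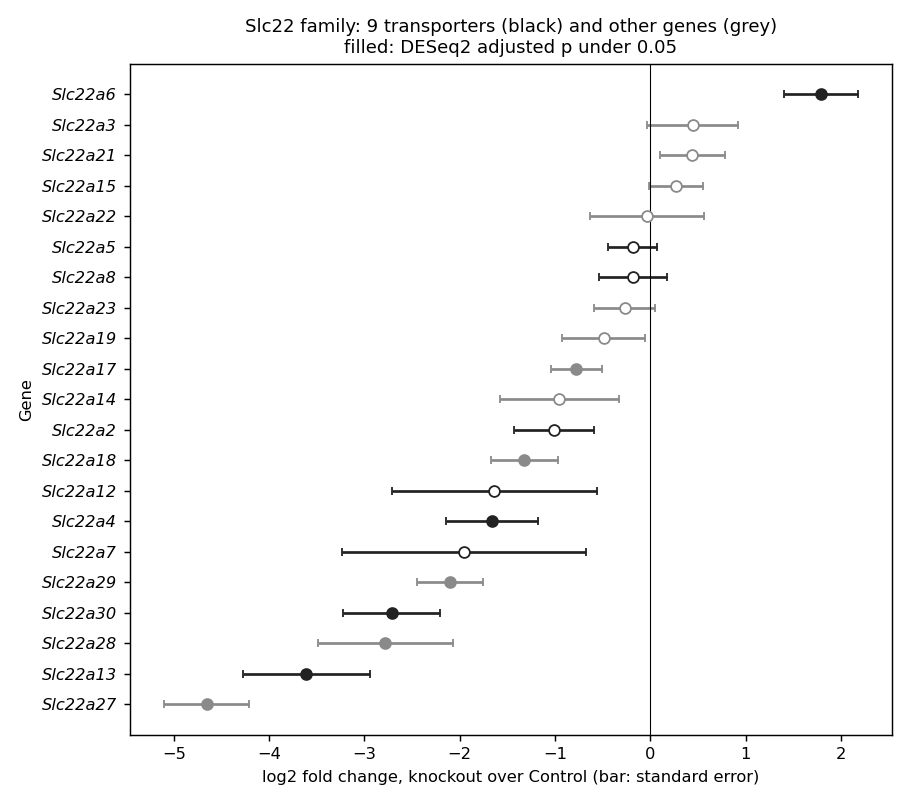
Log2 fold change (knockout minus Control, horizontal axis, bars show the SE) of the 9 members (black) and of other tested Slc22 genes (grey), with 1 gene per line and filled points for a DESeq2 adjusted p under 0.05. Slc22a6 (1.79) is the sole filled point above 0, and Slc22a27 (-4.66) and Slc22a13 (-3.61) lie at the lower end.

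On chromosome 19, the starts of Slc22a27, Slc22a28, Slc22a29 and Slc22a30 lie at -753.6, -555.8, -457.8 and -282.6 kb from that of Slc22a6, and each was lower in knockout by DESeq2 (log2 fold change -4.66, -2.78, -2.10 and -2.72). Slc22a19, at -944.9 kb, had a log2 fold change of -0.49 (DESeq2 adjusted p 0.499), and Slc22a8, at -26.7 kb, one of -0.19. Slc22a6 was the sole tested gene of this row that was higher. The edgeR adjusted p of Slc22a28 was 0.0755. Slc22a27, Slc22a28, Slc22a29 and Slc22a30 share transcript windows with others of the row (8.02%, 37.0%, 7.64% and 20.5% of their windows) and do not give fully separate measurements.

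**Figure D5:**
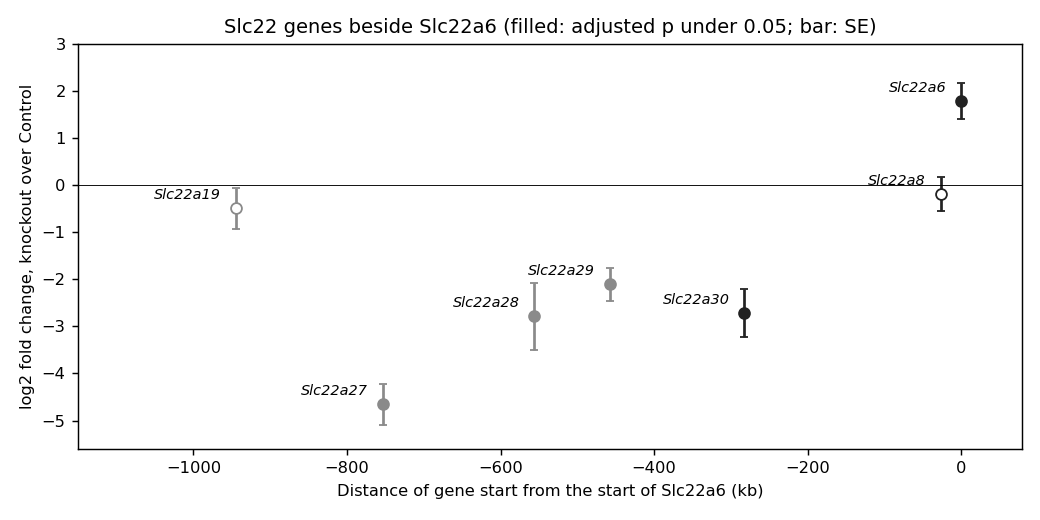
Log2 fold change (knockout minus Control, with SE) of the tested Slc22 genes in the row beside Slc22a6 on chromosome 19 (members black, others grey) against the distance of each gene's start from that of Slc22a6 in kilobases. Values lie between -4.66 and -2.10 for Slc22a27 to Slc22a30, at -0.19 for Slc22a8 and at 1.79 for Slc22a6.

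Tubular secretion needs carriers on both membranes, so the partners of the Slc22 genes were examined as a list. Of 18 partner transporters tested, 4 were higher and 0 lower, where 7.74% and 7.18% of all genes tested were. Their median log2 fold change was -0.011, and edgeR called 3 of 17 higher, where 3.22% of all genes were. The count of lower partners was 3 without Control replicate 3, where 6.78% of all genes were lower. It was 2 without TfR1 knockout replicate 1 (10.5% of all genes) and 1 without TfR1 knockout replicate 2 (5.39%). Abcc2 (MRP2), which exports anion conjugates into the urine, had 1191, 774 and 574 normalized counts in Control and 2304, 2912 and 2169 in TfR1 knockout libraries (log2 fold change 1.54, DESeq2 adjusted p 9.88e-06). Its groups did not overlap. Abcc4 (MRP4), a further anion exporter, was at 0.77 (DESeq2 adjusted p 0.00222), and Slco2a1, the prostaglandin carrier, at 0.88 (3.75e-05). Slc47a1 (MATE1), which exports cations into the urine, was at 0.17 (DESeq2 adjusted p 0.805), and Slc13a3, which supplies the dicarboxylate that OAT1 exchanges, was at -0.03 (0.977).

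Transcription factors that drive tubule transporter genes were examined as a list of 5 regulators, of which 1 was higher and 0 lower by DESeq2, and 0 were called by edgeR. Among all genes tested, 7.74% were higher and 7.18% lower by DESeq2. Without Control replicate 3, 1 regulator was lower, where 6.78% of all genes were. Hnf4a was at a log2 fold change of -0.24 and Hnf4g at 0.37, neither of them called. Ppara, which encodes a receptor that switches on fatty acid oxidation genes, had 1083, 1153 and 512 normalized counts in Control and 1629, 5922 and 2092 in TfR1 knockout libraries (log2 fold change 1.81, SE 0.49, DESeq2 adjusted p 0.00365, edgeR adjusted p 0.0884). The groups did not overlap, and TfR1 knockout replicate 2 stood far above the other libraries.

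Other proximal tubule genes did not all follow one direction. Among all genes tested, 7.74% were higher and 7.18% lower. Of 20 markers, 1 was higher, Pck1, a gluconeogenesis enzyme (log2 fold change 2.12), and 3 were lower, Gatm (-1.87), Lrp2, which encodes the endocytic receptor megalin (-1.48), and Dab2, its adaptor (-0.72), with a list median of -0.42. Of 3 early-segment markers 2 were lower, Slc5a2 and Slc34a3 (glucose and phosphate uptake, log2 fold changes -5.12 and -5.00), and Slc5a12 was at -0.31 (DESeq2 adjusted p 0.735). Of 4 late-segment markers 1 was lower, Slc7a13 (-6.04), with Slc5a1 at -0.05, Atp11a at 0.02 and Cyp7b1 at 0.69, and a list median of -0.015. The level of each member was therefore also compared with the 20 markers as the scale, by taking the size factors from them. Of the 9 members, 1 was then higher and 2 lower, where 3.2% and 1.12% of 16887 genes tested were. Slc22a6 stood -1.66, -1.67 and -2.18 log2 units from the mean of the markers in the Control libraries and 0.41, 0.44 and 0.46 in the TfR1 knockout libraries, a difference of 2.23 by DESeq2 (SE 0.36, adjusted p 1.99e-07). Slc22a13 (-3.16, adjusted p 3.71e-06) and Slc22a30 (-2.31, adjusted p 0.000692) stayed lower on this scale, and Slc22a4 did not pass (-1.27, adjusted p 0.125). This list holds Pck1 and 3 lower genes. With the early and late segment markers as the scale instead, 65.1% of 17262 genes tested were higher and 0.637% lower. On that scale 3 members were higher, Slc22a6 (3.00), Slc22a8 (1.12) and Slc22a5 (0.95), a smaller share than among all genes, 1 was lower, Slc22a30 (-1.34), and Slc22a13 missed the threshold (-2.18, DESeq2 adjusted p 0.0702).

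Markers of other cells also differed between the groups, where 7.74% of all genes tested were higher and 7.18% lower. All 6 thick ascending limb markers were lower, with sums of 51175 to 115639 normalized counts in Control and 13956 to 26572 in TfR1 knockout libraries, and so were all 3 distal convoluted tubule markers (11272 to 22529 and 736 to 1783). Higher were 4 of 6 collecting duct markers (9780 to 19482 and 37084 to 64829), 4 of 6 macrophage markers (2201 to 3441 and 4996 to 7538) and 4 of 5 hepatocyte markers (3303 to 4974 and 4192 to 15913). No marker of these lists was at 3 counts or fewer in every library. Their part in the Slc22 values was not tested.

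For each member, the pattern over the 6 libraries was compared with those of 12105 genes whose mean reached 100 normalized counts, as a description of likeness. Slc22a6 was nearest to Slc5a10 (Pearson r 0.999), a sodium-coupled sugar carrier, and Osgin1 (0.998). Slc22a13 was nearest to Lrp2 (0.998), Slc22a2 to Pdzk1 (0.998), the gene of a scaffold protein that binds transporters in the urine-facing membrane, and Slc22a30 to Cby1 and Gcgr (0.998 each). Slc22a12 was nearest to Cyp51 (0.998), a cholesterol synthesis enzyme, Slc22a4 to Apeh (0.998), Slc22a7 to Mycbpap (0.996), Slc22a8 to Rpn1 (0.995) and Slc22a5 to Phf6 (0.992). With 6 libraries in 2 groups, such values share the group difference and the order of libraries.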

How the data were processed

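Poly-A RNA libraries (TruSeq, single-end) were sequenced from 6 whole kidneys. Per the labels and the study's methods, the authors used CASAVA 1.8.2, trimmed reads with Trimmomatic, mapped them to mm9 with TopHat2 2.0.11 and counted unique alignments with HTSeq. The deposited values are raw gene counts, without normalization. Unique counting lowers the counts of genes with near copies. The annotation and strand setting used for counting are not given in the sources used here.

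The counts were tested with DESeq2 1.42.0 in R 4.3.3 (Wald test, median-ratio size factors, Benjamini-Hochberg adjustment, independent filtering at 0.05, lowest mean tested 3.51). The study also used DESeq2 and an adjusted p under 0.05, but with at least a 2-fold change, which the calls here did not require. With a 2-fold change as well, 1 member was higher and 3 lower, 4 other Slc22 genes were lower and 2 partner transporters higher. By the same rule 728 of all 16509 genes tested were higher and 736 lower. Normalized counts are counts divided by size factors. The alternatives were edgeR 4.0.16, limma 3.58.1 with voom, other scalings and filters, a null of at most 2-fold, a replicate block, an Xist covariate, and leaving out each library. Positions and exon lengths came from GENCODE M1 on mm9, matched by symbol. The code was tested on simulated data.

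All members were named with their values, then up to 4 genes per other list with the largest change (called, mean of 100 normalized counts or more), all regulators, Tfrc and each member's nearest genes. A few genes of these lists are not reported here. Other genes named were chosen after their values were seen. The members and lists were chosen with earlier results of these data known. With 3 libraries per group, the spread between libraries limits the precision, not the depth.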

Additional observations from a re-analysis of the deposited data

How the results depend on the processing

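Over the members' alternatives, 130 values kept their direction and side of the threshold, 9 lost the call, 13 gained it and 1 changed sign (Slc22a8, -0.52 to 0.015 when 1 library was left out). This tally includes the fit without Control replicate 3 and TfR1 knockout replicate 1, chosen after the data were seen. In that fit Slc22a2, Slc22a7, Slc22a8 and Slc22a12 gained the call. The count of lower members, 3 in the DESeq2 fit, was 1 with limma-voom, 1 against a null of at most 2-fold, 5 with a replicate block, 5 with an Xist covariate, 2 to 6 when 1 library was left out, and 7 with Control replicate 3 and TfR1 knockout replicate 1 left out. Among all genes, 428 (2.8% of those tested) were lower with edgeR, 456 with limma-voom, 86 against the 2-fold null and 1087 with a replicate block. With an Xist covariate 1262 were lower, with 1 library left out 575 to 1674, and with both left out 1668. The count of higher members was 0 against the 2-fold null and 1 otherwise. Among all genes, 122 were higher against that null, 493 with edgeR and 485 with limma-voom. Other Slc22 genes lower, 5, became 2 with edgeR, 2 with limma-voom and 1 against the 2-fold null. Partner transporters higher, 4, became 0 against the 2-fold null, and lower, 0, became 1 with total-count scaling, 1 with upper-quartile scaling, 2 with a replicate block, 1 with an Xist covariate and 0 to 3 with 1 library left out. Regulators higher, 1, became 0 with edgeR, limma-voom and the 2-fold null, and lower was 0 to 1 with 1 library left out. On the proximal tubule scale, with early and late segment markers as the reference (65.1% of all genes then higher) 3 members were higher and 1 lower, and lower members were 4 with a replicate block and 2 to 5 with 1 library left out. For the block and left-out fits on this scale, the share of all genes was not computed, so those counts lack a background. The cause of these changes in counts was not tested. Total-count scaling moved the median of all genes by -0.10 and the split to 996 higher and 1407 lower, from 1277 and 1186. Upper-quartile scaling gave 1159 higher and 1349 lower. Shares of the genes tested were not computed for these scalings, limma-voom, the 2-fold null or the replicate block. Same-numbered samples did not deviate together in every pair (r -0.038, 0.055 and 0.090). Such values cannot exclude pairing by litter, and whether the replicate numbers pair the mice is not given in the labels. The block made Slc22a2 (-0.95, adjusted p 0.00282) and Slc22a7 (-2.12, adjusted p 0.00165) pass.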
